A study of Mus musculus with 24 samples.

Results

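Heme oxygenase 1 (Hmox1), the thioredoxin-interacting protein (Txnip), the transcription factor Nrf2 (Nfe2l2) and the glutathione transferases Gsta4 and Gstm1 are described here in cultured mouse embryos after a heat shock. All probes whose platform annotation names exactly 1 gene, and that gene 1 of these 5, were taken, which gave 7 of 15360 probes, and 5 of the 6970 genes that probes name singly. Hmox1 had 1 probe on slide type 1. Nfe2l2 had 1 on each slide type. Txnip and Gsta4 had 1 each on slide type 2, and Gstm1 had 2 there.

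Heat-shocked embryos were held at 43 °C for 15 min, put back at 37 °C and taken after 1 h, and control embryos stayed at 37 °C. Total RNA of both was compared in 2 channels on 24 arrays, from 3 numbered treatments and 2 slide types with different probes. Each treatment and slide type had 4 arrays, 2 of either labelling: on forward arrays the heat-shocked embryos' RNA was in channel 1, and on reverse arrays in channel 2. In each pair, 1 array had a suffix on its slide code, whose meaning is not stated. The strain, the age of the embryos and how many were pooled for an extract are not given in the labels. The 4 arrays were averaged, so that the 3 treatments are the replicates, and nothing says that they used separate litters. The p-values rest on the spread between these treatments, which limma takes partly from the probe itself and partly from all probes. The number of treatments limits the precision.

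The values are log ratios as deposited, with the median of each array set to 0. The log's base and which channel is the numerator are unknown, and the sign was turned on reverse arrays. A positive value means more signal from heat-shocked than from control embryos only under the usual reading, channel 1 divided by channel 2. The direction is thus not settled, and sides are given in its place. Arrays of slide type 2 with the same labelling correlated as low as r = −0.34 over all probes, between treatments 1 and 2, whereas treatment means over both labellings correlated at 0.82 to 0.90 there and at 0.70 to 0.80 for slide type 1. With the sign turned, every value below would change side and keep its size. The heat shock proteins Hspb1 (2.23 ± 0.05, SD, n = 3 treatments, on slide type 2) and Hsph1 (2.25 ± 0.30 and 2.32 ± 0.73 from 2 probes of slide type 1) were on the positive side on 12 of 12 arrays each. These are ratios, so no level of any gene can be given, and levels of different genes cannot be ordered.

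The 5 genes act in connected parts of the defence against oxidants. Nrf2 is held low by Keap1, which sends it for degradation, and when released it switches on genes for glutathione synthesis and transfer, for thioredoxin reductase and for heme oxygenase. Heme oxygenase 1 breaks heme down to biliverdin, iron and carbon monoxide, and is among the enzymes best known for induction by heat, heme and heavy metals. Glutathione transferases couple reactive compounds to glutathione. Txnip works the other way: it binds and blocks thioredoxin, and it also belongs to the arrestin family and limits glucose uptake.

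Promoters of 3 of the 5 genes matched the RefSeq table for build GRCm38.p6, with 4 entries in all, each reaching from 250 bases before to 50 after a gene start. They are shown because Txnip had by far the largest value among the 5 genes and Nfe2l2 and Gstm1 lay on the other side, so sequences from both sides can be read together. Capitals mark the motifs searched on both strands, and no marked motifs overlap.
Txnip, chr3:96557707-96558006, plus strand: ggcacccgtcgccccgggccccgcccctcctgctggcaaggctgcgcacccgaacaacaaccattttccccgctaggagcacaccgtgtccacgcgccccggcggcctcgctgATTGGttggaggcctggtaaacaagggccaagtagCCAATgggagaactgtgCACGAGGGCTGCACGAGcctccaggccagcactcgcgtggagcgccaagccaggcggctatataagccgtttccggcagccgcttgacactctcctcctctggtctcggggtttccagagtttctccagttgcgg
Nfe2l2, chr2:75704614-75704913, minus strand: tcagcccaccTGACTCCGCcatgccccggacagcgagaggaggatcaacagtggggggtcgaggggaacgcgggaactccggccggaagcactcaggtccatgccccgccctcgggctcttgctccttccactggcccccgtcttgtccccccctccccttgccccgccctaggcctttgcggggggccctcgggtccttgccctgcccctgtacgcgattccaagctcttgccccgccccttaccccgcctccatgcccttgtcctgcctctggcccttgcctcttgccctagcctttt
Gstm1, chr3:108017769-108018068, minus strand: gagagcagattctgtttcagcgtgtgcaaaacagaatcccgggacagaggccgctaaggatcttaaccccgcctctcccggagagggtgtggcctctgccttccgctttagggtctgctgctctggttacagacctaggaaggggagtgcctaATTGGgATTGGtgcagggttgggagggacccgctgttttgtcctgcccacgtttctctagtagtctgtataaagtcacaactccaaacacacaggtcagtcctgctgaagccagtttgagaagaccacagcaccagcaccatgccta

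The Txnip promoter holds a carbohydrate response element, searched as CACGNG, any 5 bases and CACGNG, which begins at position −85 from the gene start and reads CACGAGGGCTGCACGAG. In glucose biology this is the kind of element at which the sugar-responsive factors MondoA and ChREBP bind with their partner Mlx. It was found in 16 of 32851 promoters of the table (0.0487%). The promoter also has 2 CCAAT boxes (CCAAT, in 37.4% of promoters), beginning at −137 and −102, and the printed Gstm1 promoter has 2 as well. The core of the antioxidant response element that Nrf2 binds, searched as TGACNNNGC, occurs in 12.4% of promoters, and among the 4 entries only in that of Nfe2l2, at −240. The cores of a heat shock element, searched as GAANNTTC (7.86% of promoters) and TTCNNGAA (8.52%), have no match in these 4 windows. Such a match describes the letters in the window and says nothing of binding.

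Txnip, on chromosome 3 (GRCm38.p6, chr3:96557957-96561857), showed the largest value of the 5 genes by far. On slide type 2, which carries its probe (number 7529), the log ratio was 1.67 in treatment 1, 2.09 in treatment 2 and 1.79 in treatment 3. All 3 treatments lay on the positive side, with treatment 2 the highest. The mean was 1.85 ± 0.22 (SD, n = 3 treatments; limma 95% interval 1.68 to 2.02; limma adjusted p = 2.03e-08 over 7680 probes). By size this ranked 3 among the 7680 probes of the slide type, where Hspb1 ranked 1. If the log has base 2 the difference is 3.61-fold, and if it is natural 6.38-fold.

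On single arrays the Txnip value ranged from 1.07 to 2.89 with a median of 1.88, and it was positive on 12 of 12. In treatment 1 the forward arrays gave 2.14 without and 1.18 with the suffix, and the reverse arrays 2.02 and 1.35. Treatment 2 gave 2.89 and 2.73 forward, and 1.40 and 1.36 in reverse. In treatment 3 these values were 2.19 and 1.74, and 2.17 and 1.07. The highest values thus came from the forward arrays of treatment 2, and the array without the suffix was the higher in 6 of 6 pairs, by 0.57 on average. Txnip had a mean of 2.15 ± 0.60 on forward and 1.56 ± 0.16 on reverse arrays (SD, n = 3 treatments). The difference of 0.59 had a limma 95% interval of −0.28 to 1.45 and did not pass the test (limma adjusted p = 0.616).

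**Figure D1:**
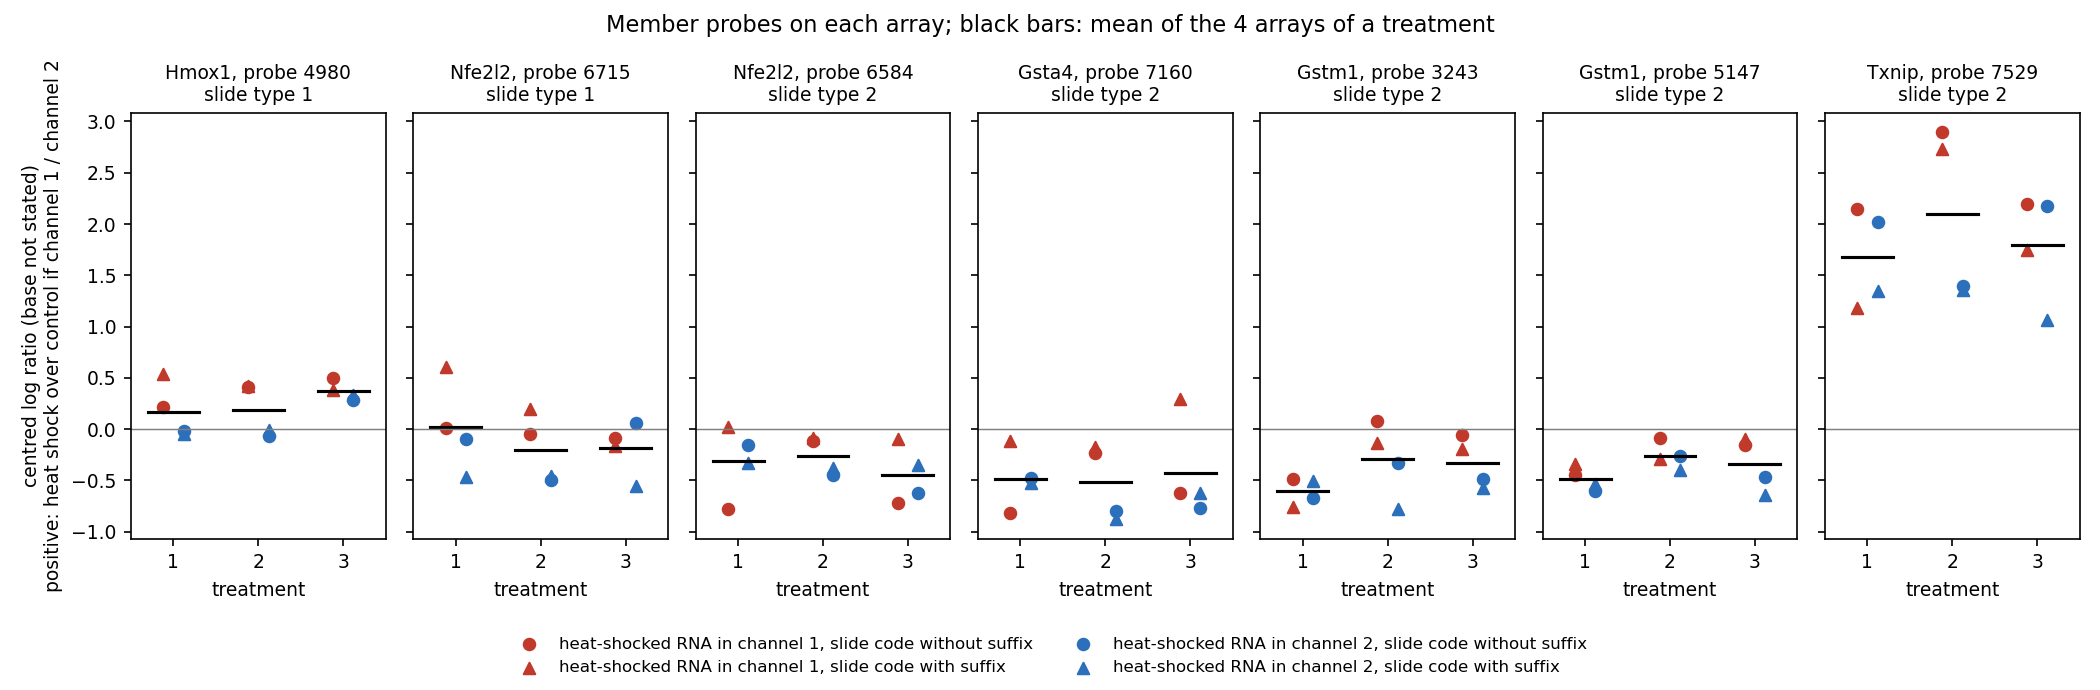
Each panel plots 1 probe, with the treatment number on the x axis and the centred log ratio on the y axis (base not stated). Red points are forward and blue points reverse arrays, triangles are arrays with the suffix, and black bars are means of 4 arrays. Txnip is positive on all 12 arrays, between 1.07 and 2.89, while the other 6 probes lie between −0.88 and 0.61.

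Hmox1 (chr8:75093618-75100593), on probe 4980 of slide type 1, had a small value on the same side. The log ratio was 0.17 in treatment 1, 0.19 in treatment 2 and 0.37 in treatment 3, all positive, with treatment 3 above the others. The mean was 0.24 ± 0.11 (SD, n = 3 treatments; limma 95% interval 0.099 to 0.39; limma adjusted p = 0.0223), which is 1.18-fold in base 2 and 1.27-fold for a natural log. In size it ranked 983 of 7680 probes. The call rested on treatment 3: without it the value was 0.18 and limma gave adjusted p = 0.0917.

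The arrays of Hmox1 split by labelling in treatments 1 and 2. The 6 forward arrays read 0.22 and 0.53, 0.41 and 0.42, and 0.50 and 0.38 in treatments 1, 2 and 3, all positive. The reverse arrays read −0.019 and −0.051, −0.071 and −0.0047, and 0.28 and 0.33, so that only treatment 3 left 0 clearly. The titles of these 2 reverse arrays of treatment 3 name a slide number that differs from their slide code. They were assigned by the treatment named in the title, for all probes of slide type 1, and whether this is right was not tested. The means were 0.41 ± 0.031 forward and 0.077 ± 0.20 in reverse (SD, n = 3 treatments). The difference of 0.33 had a limma 95% interval of 0.058 to 0.60 and missed the threshold after adjustment (limma adjusted p = 0.0766), and 22.2% of all probes of slide type 1 passed that test of forward against reverse arrays. Fitted on their own, forward arrays kept the call (limma adjusted p = 0.00217) and reverse arrays did not (limma adjusted p = 0.616).

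Nfe2l2 (chr2:75675513-75704663) was measured on both slide types, and both means were negative. Probe 6584 of slide type 2 had −0.31, −0.26 and −0.45 in treatments 1, 2 and 3, with a mean of −0.34 ± 0.098 (SD, n = 3 treatments; limma 95% interval −0.47 to −0.20; limma adjusted p = 0.00146). It was negative on 11 of 12 arrays, from −0.78 to 0.018 with a median of −0.34. Probe 6715 of slide type 1 had 0.016, −0.20 and −0.18, with a mean of −0.12 ± 0.12 (limma 95% interval −0.27 to 0.022; limma adjusted p = 0.293), and did not pass.

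The 2 Nfe2l2 probes also differed in how their arrays scattered. Probe 6715 had 4 positive and 8 negative arrays, from −0.55 to 0.61. It had 0.086 ± 0.22 on forward and −0.33 ± 0.12 on reverse arrays (SD, n = 3 treatments), a difference of 0.42 with a limma 95% interval of 0.12 to 0.71 that passed the test of the labellings (limma adjusted p = 0.0479). For probe 6584 these means were −0.30 ± 0.17 and −0.38 ± 0.13, and the difference of 0.086, with a limma 95% interval of −0.78 to 0.95, did not pass (limma adjusted p = 0.944). That interval is wide, and on slide type 2 only 0.0130% of all probes passed the test of the labellings. There limma took the spread almost wholly from all probes. The intervals of the member probes had nearly equal width, while SDs of the difference ran from 0.16 (Gstm1 probe 5147) to 0.76 (Txnip). Not passing this test on slide type 2 thus does not describe a probe's own scatter. The slide types were fitted apart, and no test sets the 2 probes against each other.

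Gsta4 (chr9:78191966-78209349), an alpha class transferase known for clearing hydroxynonenal, a product of lipid peroxidation, had the most even values across treatments. Probe 7160 of slide type 2 gave −0.48, −0.52 and −0.43 in treatments 1, 2 and 3, all negative. The mean was −0.48 ± 0.045 (SD, n = 3 treatments; limma 95% interval −0.60 to −0.35; limma adjusted p = 9.56e-05), rank 165 of 7680 counted from the negative end. In base 2 this is 1.39-fold, and for a natural log 1.61-fold.

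The evenness of the Gsta4 means hid a wider scatter among arrays, from −0.88 to 0.29 with a median of −0.57. The forward arrays gave −0.82 without and −0.11 with the suffix in treatment 1, −0.23 and −0.17 in treatment 2, and −0.62 and 0.29 in treatment 3. All 6 reverse arrays lay between −0.88 and −0.48. The forward array with the suffix in treatment 3 was the only positive one of 12. The means were −0.28 ± 0.17 forward and −0.68 ± 0.17 in reverse (SD, n = 3 treatments; difference 0.40, limma 95% interval −0.46 to 1.27, limma adjusted p = 0.731).

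Gstm1 (chr3:108012250-108017973), a mu class transferase, was measured by 2 probes of slide type 2, which gave close values. Probe 3243 had −0.60, −0.29 and −0.33 in treatments 1, 2 and 3, with a mean of −0.41 ± 0.17 (SD, n = 3 treatments; limma 95% interval −0.56 to −0.25; limma adjusted p = 0.00111). Probe 5147 had −0.48, −0.26 and −0.34, with a mean of −0.36 ± 0.11 (limma 95% interval −0.50 to −0.22; limma adjusted p = 0.00119). Both were lowest in treatment 1, and their difference per treatment averaged −0.048 ± 0.069 (SD, n = 3 treatments), with probe 3243 below probe 5147 on 7 of 12 arrays. Both probes come from 1 gene and the same arrays, so they are not independent.

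Across arrays probe 3243 ranged from −0.78 to 0.074 and was negative on 11 of 12, and probe 5147 ranged from −0.64 to −0.085 and was negative on 12 of 12. Among all probes of slide type 2, 4.44% lay on 1 side on all 12 arrays, and of the 5 member probes there Txnip and Gstm1 probe 5147 did. On forward and on reverse arrays the means were −0.26 ± 0.32 and −0.56 ± 0.029 for probe 3243, and −0.24 ± 0.14 and −0.48 ± 0.13 for probe 5147 (SD, n = 3 treatments). Neither difference passed the test, with 0.30 (limma 95% interval −0.57 to 1.17, limma adjusted p = 0.794) and 0.25 (limma 95% interval −0.62 to 1.1, limma adjusted p = 0.827). Mu class genes resemble one another in sequence, and whether these probes tell them apart was not tested.

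**Figure D2:**
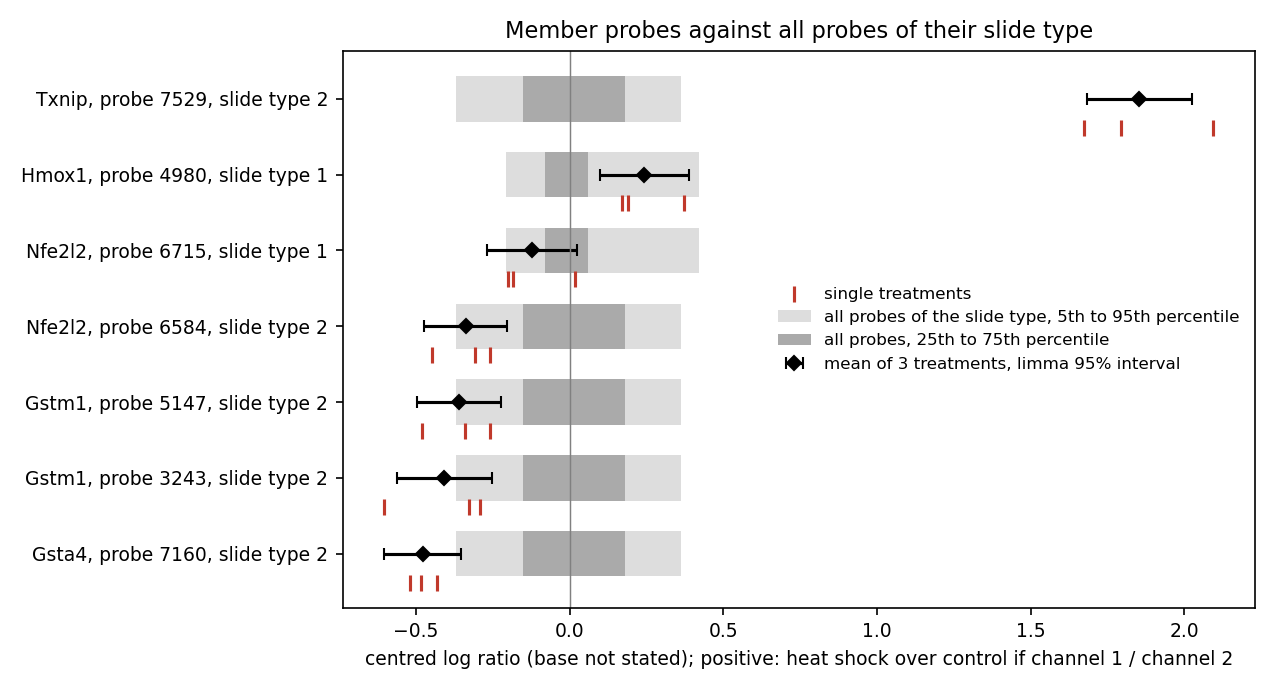
The centred log ratio (x axis, base not stated) of each member probe, as the mean of 3 treatments with its limma 95% interval (black) and the single treatments (red ticks), over the 5th to 95th (light) and 25th to 75th (dark) percentiles of all probes of the same slide type. Txnip at 1.85 stands far outside the light band, which ends at 0.36 on slide type 2, and Gsta4 at −0.48 and Gstm1 probe 3243 at −0.41 lie beyond its lower end at −0.37.

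Over the 7 probes, 6 passed the test, with 2 positive and 4 negative. On slide type 1, where 16.1% of all probes passed (11.0% positive and 5.09% negative), 1 of 2 did, and it was positive. On slide type 2, where 53.3% passed (28.9% positive and 24.4% negative), 5 of 5 did, 1 positive and 4 negative. Probes with 1 gene symbol passed at 12.8% on slide type 1 (6.0% positive, 6.84% negative) and at 49.0% on slide type 2, where 17.6% were positive and 31.4% negative. All probes split into 844 positive and 391 negative calls on slide type 1 and 2219 and 1877 on slide type 2. With arrays centred on the probes of 1 gene symbol, this became 996 and 221, and 3283 and 1205, and uncentred 1210 and 14, and 422 and 135. A call on slide type 2 alone is therefore common, and Gsta4, Gstm1 and Nfe2l2 there lay between the 2.15 and the 6.47 percentile of all probes.

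Whether arrays are centred matters for the smaller values. When arrays were left as deposited, the median of all probes was 0.29 on slide type 1 and 0.11 on slide type 2, against −0.015 and 0.032 with centring. Relative to that median, Txnip then had 1.82, Hmox1 0.26, Gsta4 −0.51, Gstm1 −0.44 and −0.39, and Nfe2l2 −0.37 on slide type 2 and −0.11 on slide type 1. As they stood, uncentred, Txnip (1.94) and Hmox1 (0.55) kept their calls, and Gsta4 (−0.40, limma adjusted p = 0.0765), both Gstm1 probes (−0.33 and −0.28, limma adjusted p = 0.155 and 0.211) and Nfe2l2 on slide type 2 (−0.26, limma adjusted p = 0.242) lost theirs. For Nfe2l2 on slide type 2 the SD was 0.088 uncentred and 0.098 centred. Uncentred SDs were larger than centred ones for Gsta4 (0.23) and Gstm1 (0.26 and 0.19). Leaving arrays uncentred moves the values and also the spread of all probes that limma uses, and which of these ended the calls was not tested. The uncentred Nfe2l2 value on slide type 1 turned to 0.18.

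**Figure D3:**
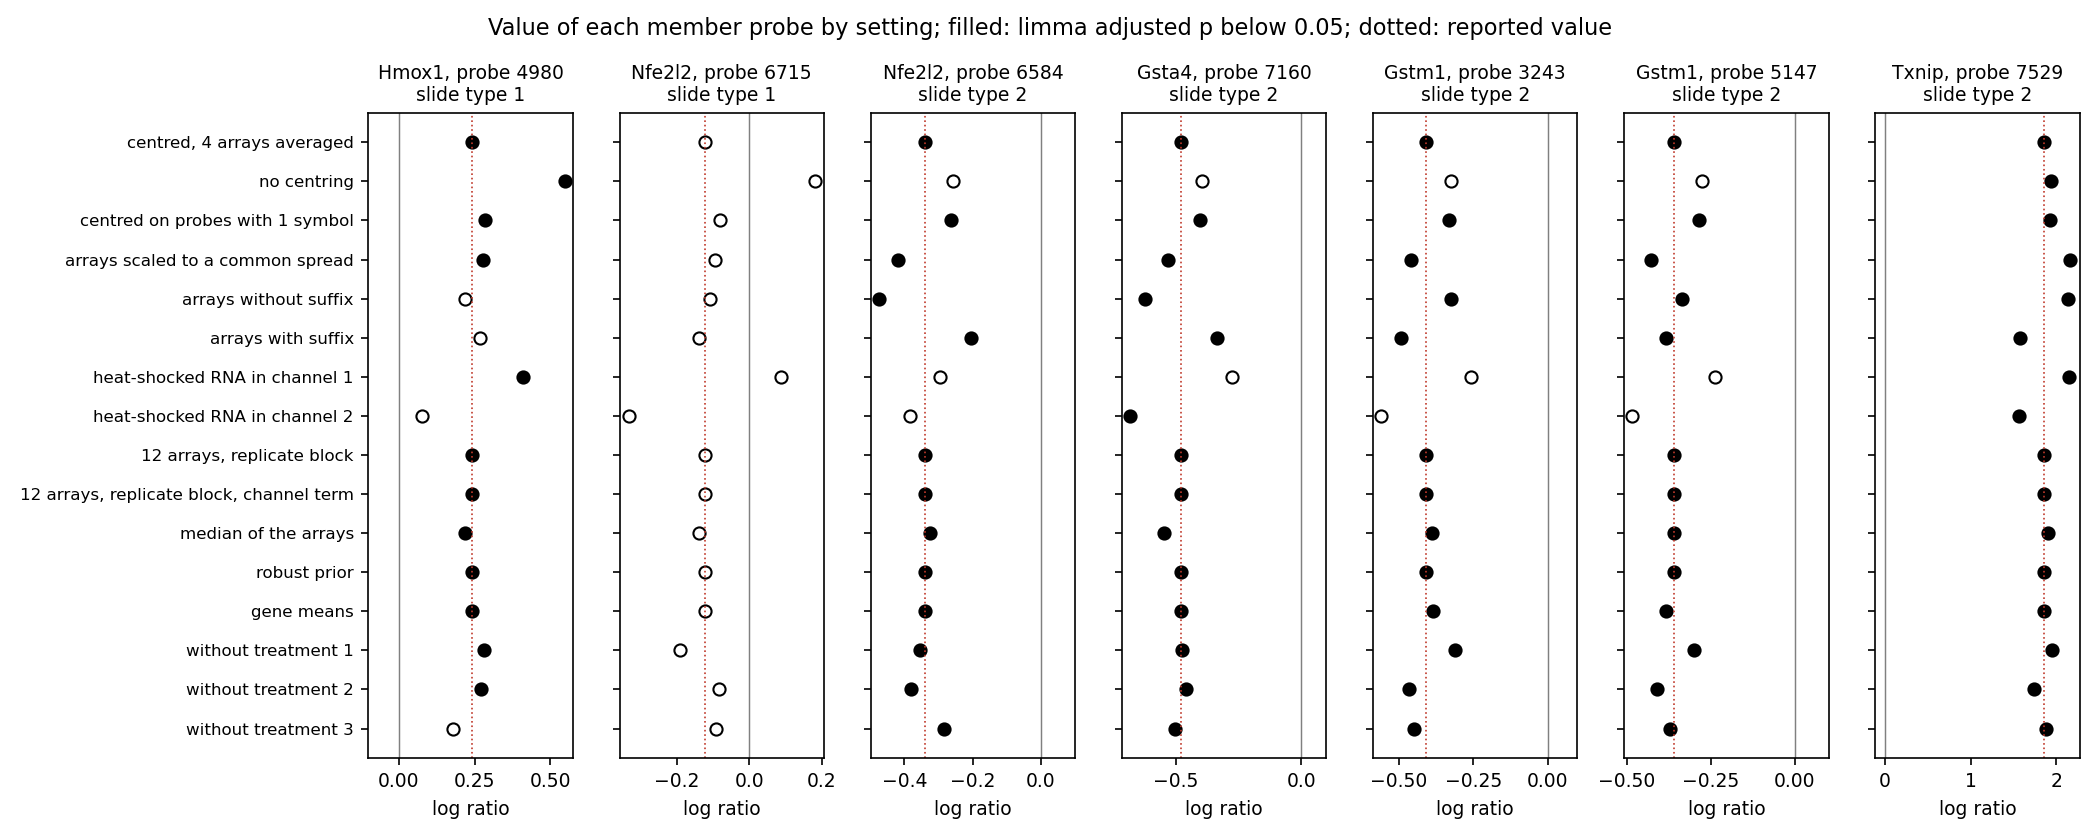
The mean log ratio (x axes, base not stated, each panel with its own range) of each member probe under the reported setting (top) and 15 others, filled where limma adjusted p was below 0.05, with the reported value as a dotted line. Txnip passed in all 15, between 1.56 and 2.16, and the 4 negative probes of slide type 2 stayed negative in all 15 but passed in 12 or 13.

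The partners of Txnip gave a mixed picture. On slide type 2 the median was 0.032 over all probes and −0.054 over probes with 1 gene symbol. Of the latter, 17.6% were positive and 31.4% negative. Among thioredoxin and arrestin family genes, 13 probes of 11 genes there gave 3 positive and 7 negative changes with a median of −0.19. Beside Txnip the positive ones were Arrdc3, a fellow arrestin family member, at 0.50 ± 0.11 (SD, n = 3 treatments; limma adjusted p = 0.000132), and Mlx, the partner of MondoA and ChREBP, at 0.25 ± 0.052 (limma adjusted p = 0.00543), which was named after its value was seen. Arrdc3 kept its call without centring (0.59, limma adjusted p = 0.0017), with 0.87 on forward and 0.14 on reverse arrays. Uncentred, Mlx had 0.33, larger than with centring, but did not pass (limma adjusted p = 0.146), and on its probe of slide type 1 it had −0.14 ± 0.18 (limma adjusted p = 0.25).

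Proteins of the thioredoxin fold and peroxiredoxins, which reduce peroxides, made up the 7 negative changes. These 7 probes lay between −0.10 and 0.047 on forward arrays, and between −0.61 and −0.39 on reverse arrays. Their negative means thus came mostly from 1 labelling. Txnl4a, a spliceosome protein with a thioredoxin fold, had −0.33 ± 0.14 (SD, n = 3 treatments; limma adjusted p = 0.00256) and Txnl1 −0.27 ± 0.035 (limma adjusted p = 0.00359), while Txn1, thioredoxin itself, named after its value was seen, had −0.28 ± 0.073 (limma adjusted p = 0.00376). None of the 10 probes of this list on slide type 1 passed, with a median of −0.13. There Txnrd1, thioredoxin reductase, had −0.18 ± 0.019 (limma adjusted p = 0.0675) and Prdx1 −0.17 ± 0.041 (limma adjusted p = 0.0826). Without centring the list had 2 positive and 0 negative changes on slide type 2.

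Probes with 1 gene symbol on slide type 2 were negative in 31.4% and positive in 17.6%. Of the glutathione genes, 19 probes of 15 genes there gave 9 negative changes and 1 positive, with a median of −0.14. Gsta4 and both Gstm1 probes had the lowest 3 values. Gpx8, a peroxidase of the endoplasmic reticulum, had −0.29 ± 0.14 (SD, n = 3 treatments; limma adjusted p = 0.00557), and Gstm5, another mu class transferase, −0.24 ± 0.048 (limma adjusted p = 0.00708). Gpx4, which reduces lipid peroxides and was named after its values were seen, passed on both of its probes, at −0.27 ± 0.16 (limma adjusted p = 0.00823) and −0.20 ± 0.096 (limma adjusted p = 0.017). The first Gpx4 probe had −0.18 on forward and −0.37 on reverse arrays, and the second 0.16 and −0.57, on opposite sides. Gstm2, named after its values were seen, had probes on both sides, at −0.20 and 0.28, both past the test, and 1 at −0.12 that was not (limma adjusted p = 0.0975). The positive one had −0.19 on forward and 0.75 on reverse arrays, and its call was lost without treatment 1.

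On slide type 1, where 6.84% of probes with 1 gene symbol were negative, the glutathione list had 5 probes of 4 genes. They gave 3 negative changes and a median of −0.20. Gstp1, the pi class transferase, had −0.23 ± 0.077 (SD, n = 3 treatments; limma adjusted p = 0.0223). Gclc, the catalytic subunit of the first enzyme of glutathione synthesis, had −0.22 ± 0.12 on 1 probe (limma adjusted p = 0.0356) and −0.069 on another that did not pass (limma adjusted p = 0.601). The first Gclc probe had −0.053 on forward and −0.40 on reverse arrays, and the other −0.33 and 0.20. Gss, the second enzyme, had −0.20 ± 0.062 (limma adjusted p = 0.0433). These 3 changes came down to 1 when any single treatment was left out. Without centring this list had 0 changes on either slide type, and its median on slide type 1 turned to 0.10.

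Around Nrf2, a list held Nfe2l2 itself, its partners, genes that it switches on and NADPH-supplying enzymes. It had 14 probes of 9 genes on slide type 2, with 6 negative changes and 1 positive and a median of −0.087. The member probe of Nfe2l2 and both Nfe2l1 probes were among the negative ones. Among probes with 1 gene symbol, 31.4% were negative and 17.6% positive on slide type 2, and 6.84% and 6.0% on slide type 1. Nfe2l1, a factor related to Nrf2, had −0.35 ± 0.09 (SD, n = 3 treatments; limma adjusted p = 0.00104), and the cytosolic isocitrate dehydrogenase Idh1, which yields NADPH, had −0.36 ± 0.11 (limma adjusted p = 0.00116). Taldo1, transaldolase, had −0.24 ± 0.071 (limma adjusted p = 0.00712). The positive change was Ephx1, an epoxide hydrolase named after its value was seen, at 0.17 ± 0.078 (limma adjusted p = 0.0316), with −0.53 on forward and 0.88 on reverse arrays. On slide type 1, 14 probes of 11 genes gave 2 negative changes, in Idh1 (−0.22 ± 0.09, limma adjusted p = 0.037) and Gclc, and 1 positive change, Hmox1 itself. The 2 negative changes of slide type 1 came down to 0 without treatment 1 and to 1 without treatment 2 or 3. On slide type 2 the list had 4 positive changes without treatment 2 and 0 without treatment 1 or 3, in place of 1, and without centring 0 changes on either side, while on slide type 1 it had 2 positive and 0 negative changes without centring.

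Heme and iron genes around Hmox1 had their own spread of values. Hmox2, the constitutive heme oxygenase, had 0.19 ± 0.053 on slide type 1, which did not pass (limma adjusted p = 0.0543) but did without centring (limma adjusted p = 0.0196). On slide type 2 it had −0.35 ± 0.033 (SD, n = 3 treatments; limma adjusted p = 0.000774), with 0.0083 on forward and −0.71 on reverse arrays. The transferrin receptor Tfrc was negative on both slide types, at −0.23 ± 0.12 on slide type 1 (limma adjusted p = 0.0323) and −0.27 ± 0.064 on the probe of slide type 2 with the smaller p (limma adjusted p = 0.00419). On forward and reverse arrays Tfrc had −0.026 and −0.43 on slide type 1, and −0.27 and −0.27 on that probe of slide type 2. Ferritin light chain Ftl1 passed on slide type 2 (−0.28 ± 0.095, limma adjusted p = 0.00381), with 0.051 on forward and −0.62 on reverse arrays, and on none of its 5 probes on slide type 1, which lay between −0.074 and −0.052.

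Of 16 heme and iron probes on slide type 1, 1 changed on either side, with a median of −0.044, and the positive one was Hmox1 itself. Of 14 on slide type 2, 7 were negative and 0 positive, with a median of −0.11, and uncentred 0 passed. With centring, 31.4% of all probes with 1 gene symbol were negative on slide type 2 and 6.84% on slide type 1. The negative call of slide type 1, Tfrc, was lost without treatment 1 and without treatment 3. Genes against superoxide, peroxide and metals had 0 changes among 8 probes on slide type 1, and 4 negative among 10 on slide type 2 with a median of −0.12. Park7, a protein that protects against oxidants, had −0.28 ± 0.14 (SD, n = 3 treatments; limma adjusted p = 0.006) and Sod1, the cytosolic superoxide dismutase, −0.17 ± 0.084 (limma adjusted p = 0.0335). On forward and reverse arrays Park7 had 0.11 and −0.67, and Sod1 0.15 and −0.49. The other negative changes were both in Selenof, a selenoprotein of the endoplasmic reticulum, at −0.22 and −0.15. The 4 changes came down to 1 without treatment 1, to 2 without treatment 3 and to 0 without centring. The metallothioneins Mt1 and Mt2, named after their values were seen, had 0.0019, −0.085 and −0.12 on 3 probes of slide type 1, and none passed (limma adjusted p = 0.368 to 0.995).

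**Figure D4:**
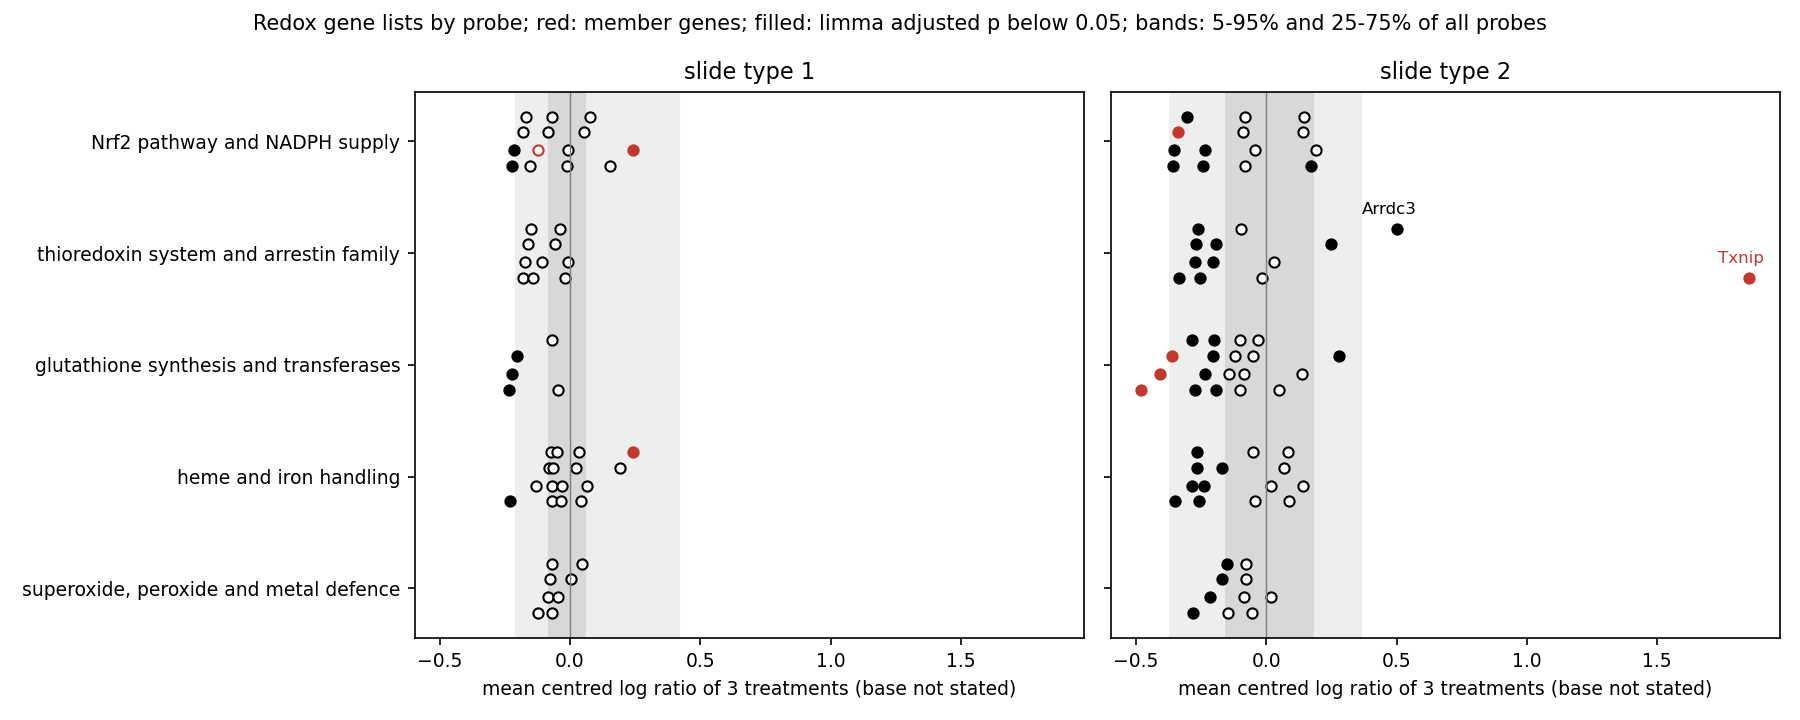
Each point is 1 probe of a redox gene list (rows), placed by its mean centred log ratio over 3 treatments (x axis, base not stated), with the list's member genes in red, filled points past limma adjusted p of 0.05, and bands for the 5th to 95th and 25th to 75th percentiles of all probes. On slide type 2 Txnip at 1.85 and Arrdc3 at 0.50 are the only list probes above the light band, while on slide type 1 no list probe lies above 0.24.

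Of the 15 genes whose promoter holds the element found before Txnip, 7 were measured, by 10 probes. Of 3 probes on slide type 1, 2 were negative and 1 did not pass. There 5.09% of all probes and 6.84% of those with 1 gene symbol were negative. Of 7 on slide type 2, 1 was positive (Txnip), 4 were negative and 2 did not pass. There 28.9% of all probes were positive and 24.4% negative, and 17.6% and 31.4% of those with 1 gene symbol. The negative probes of the element's genes were in Fem1b, with both of those on slide type 1, in Rbbp4, with 2 probes, and in Rbmxl1. Of these, Rbmxl1 had the lowest value at −0.52 ± 0.092 (SD, n = 3 treatments; limma adjusted p = 7.84e-05). These 3 genes were named after their values were seen.

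Across the 12 arrays of a slide type, the genes nearest to each member were found by the root mean square difference of the array values. Nearest to Txnip were Mst1r at 0.45 units, Atp5g1 at 0.47 and Cacna1d at 0.48, with means of 1.78, 1.57 and 1.67. Nearest to Hmox1 were Errfi1 and Pfkl, both at 0.12 units, and Tprkb, also at 0.12. Gsta4 had Ppp1r9b (0.21), Zfp871 (0.24) and Dpy19l1 (0.24), and for Gstm1 these were Plekhb2 (0.17), Bpgm (0.18) and Spred1 (0.18) by probe 3243, and Marveld1 (0.15), Acsl3 (0.15) and Gemin4 (0.17) by probe 5147. For Nfe2l2 they were Polr3g, Pot1a and Zfp687, all at 0.20, on slide type 2, and Eif4enif1 (0.085), Spg20 (0.10) and Nynrin (0.11) on slide type 1. The 2 Gstm1 probes shared none of these neighbours, and the 12 arrays come from 3 treatments only.

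The RNA came from embryos, which hold many cell types, so fewer cells of a type and less RNA per cell cannot be told apart. Of 12 erythroid markers, 5 genes were measured by 9 probes on slide type 2, with values from −0.15 to 0.088. There were 2 negative changes, both of the embryonic globin Hbb-y at −0.15, where 31.4% of probes with 1 gene symbol were negative. These 2 Hbb-y probes had 0.048 and 0.14 on forward arrays, and −0.35 and −0.45 on reverse arrays. The negative changes came down to 0 without treatment 1, without treatment 3 and without centring. Slide type 1 measured 1 of the 12 genes, at 0.056, which did not pass. Yolk sac endoderm markers had 5 of 12 genes on slide type 1, from −0.13 to 0.039, and 1 on slide type 2, at 0.039, and none passed (1 of the 5 did without treatment 1). Their part in the values of the 5 genes was not tested.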

How the data were processed

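The authors' deposited values are 1 score per probe and array, with no stated unit, taken as log ratios of channel 1 and channel 2. The log base, background correction, normalization and software are unknown here (not given in the sources used), and no spot intensities were read. Each slide type has a table of 7680 probes on 12 arrays, in which 0 values are missing. Array medians ran from −0.67 to 0.65 on slide type 1 and from −1.51 to 0.24 on slide type 2. The sign was turned where the labels put heat-shocked RNA in channel 2, each array was centred on its median, and a treatment's 4 arrays were averaged, forward and reverse alike.

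Each slide type was fitted on an intercept with limma 3.58.1 in R 4.3.3 (lmFit, eBayes), with Benjamini-Hochberg adjustment at 0.05 over all 7680 probes. The same fit on forward minus reverse means per treatment tested the labellings. The fit was tried on simulated treatment values with normal noise, and a separate check covered only that a constant channel effect cancels in the averages. Array shifts, centring and labelling effects that vary between probes were not simulated. Gene symbols come from the platform annotation, updated through Entrez gene numbers for the lists.

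The members, the 5 pathway lists and the 3 cell type marker lists (erythroid, yolk sac endoderm, heart muscle) were chosen with earlier results of these data known, as was the rule for named genes: all member probes, Hspb1, Hsph1, up to 4 genes per list and slide type with the smallest p, and the 3 nearest patterns per member probe. Of these the ones that bear on the text are given. Of the heart muscle list no gene was measured. Alternatives were other centring and scaling, subsets of arrays, a robust prior, gene means, treatment as a replicate block and leaving out each treatment. Figures were drawn with matplotlib 3.10.9.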

Additional observations from a re-analysis of the deposited data

Results flagged for a closer look

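Nfe2l2 on probe 6715 of slide type 1 differed between the labellings. It had 0.086 ± 0.22 on forward and −0.33 ± 0.12 on reverse arrays (SD, n = 3 treatments), and the difference of 0.42 passed the test of the difference itself (limma adjusted p = 0.0479). The difference was above 0 in 3 of 3 treatments, and 22.2% of all probes of that slide type passed the same test.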

How the results depend on the processing

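Under 15 other settings, Txnip passed in all 15 (1.56 to 2.16) and no called member probe changed side. Hmox1 lost its call on arrays without the suffix (0.22, limma adjusted p = 0.0905), with it (0.27, limma adjusted p = 0.103), on reverse arrays (0.077) and without treatment 3, with values of 0.18 to 0.28 when 1 treatment was left out. Uncentred, calls were lost for Nfe2l2 probe 6584 (−0.26), Gsta4 (−0.40) and Gstm1 (−0.33 and −0.28). Forward arrays alone gave these 4 probes −0.30, −0.28, −0.26 and −0.24, with no call. Reverse arrays alone ended the calls of Nfe2l2 (−0.38) and Gstm1 (−0.56 and −0.48). Nfe2l2 probe 6715 turned positive uncentred (0.18) and on forward arrays (0.086). The cause was not tested.

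On slide type 1 the 391 negative calls became 14 uncentred, 221 when centred on probes with 1 symbol, 196 on arrays with the suffix, 1140 on forward arrays, 217 for gene means (fewer features) and 234 (without treatment 2) to 430 when 1 treatment was left out. The 844 positive calls became 472 on reverse arrays and 220 for gene means. On slide type 2 the 2219 positive calls became 422 uncentred, 630 with arrays scaled to a common spread, 213 on forward arrays, 464 on reverse arrays, 753 for gene means, and 994 (without treatment 1) to 3038 (without treatment 2). The 1877 negative calls became 135 uncentred, 1205 when centred on probes with 1 symbol, 514 scaled, 13 forward and 236 in reverse.

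With treatment as a replicate block over all 12 arrays, the negative calls of slide type 1 became 654, and 678 with the labelling as a further term, an alternative chosen after seeing the data. Hmox1 kept its call under the block (limma adjusted p = 0.00568), and no member's call changed. Deposited log ratios carry no signal over background, so what dim spots limit is unknown.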
